A study of Mus musculus with 10 samples.

Results

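Elf5, Cdx2, Hand1, Ets2, Tfap2c, Gata3, Gata2 and Plac1, which are regulators and products of the extraembryonic ectoderm and trophoblast, were followed through dissected parts of the mouse embryo at 5.5 days post coitum. The 8 genes were taken by name, out of 18193 genes with an annotated probe set, and every probe set annotated to exactly 1 of these symbols was used. That gave 14 of 22626 probe sets on the array type MOE430A, covering all 8 genes, and 2 of 22511 on MOE430B, both of Ets2. All embryos came untreated from B6SJLF1×CerlP-GFP matings, in which a Cerl promoter drives GFP and marks the anterior visceral endoderm. The anterior distal fragment (Ad) held this fluorescent endoderm and the epiblast beneath it. The posterior proximal fragment (Pp) was a triangle of proximal visceral endoderm and epiblast from the opposite side, and its upper edge was the border between the embryonic and extraembryonic parts. The third kind of sample was the whole embryo, which the study hybridised for normalization in a search for genes higher in Ad. MOE430A carried Ad replicates 1 and 2, Pp replicates 1 and 2 and 1 whole embryo, and MOE430B carried Ad replicates 3 and 4, Pp replicates 3 and 4 and 1 whole embryo. How many embryos made up a sample, whether replicates came from separate embryos, and whether the 2 array types shared an RNA are points the labels leave unsaid. All p-values therefore measure only the spread between these arrays.

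The extraembryonic ectoderm lies just above the epiblast and visceral endoderm at this stage and comes from the polar trophectoderm. It holds trophoblast progenitors, which the ETS-family factors Elf5 and Ets2, the homeobox factor Cdx2 and the AP-2 factor Tfap2c help to maintain in the mouse. Further from the epiblast these cells enter the ectoplacental cone and giant cell lineages, where the basic helix-loop-helix factor Hand1 and the zinc finger factors Gata2 and Gata3 act, and Plac1, an X-linked gene of the placenta, encodes a membrane-associated protein. Gata2 is also known from blood, endothelium and the maternal uterus, and Ets2 from many tissues.

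The RefSeq promoter table (GRCm38.p6) listed 9 start sites for 6 of the 8 genes. The genes without one are Hand1 and Tfap2c. The 250 bases before each start were searched on both strands for the letters of 5 factor families. For GATA factors these were AGATAA and its variant that opens with T. For ETS factors, the family of Elf5 and Ets2, they were CGGAAG. For AP-2 factors such as Tfap2c they were GCCNNNGGC. For TEAD factors, the family of the trophectoderm regulator Tead4, they were GGAATG. For Cdx factors they were TTTATNG. The AP-2 letters read the same on both strands, and no set of letters contains another. Shown are both starts of Elf5, whose deposited signal differed by the largest fold between the MOE430A Pp arrays among the 8 genes. Next come Cdx2, whose signal differed little between groups, and Gata2 and Plac1, which stood out in the whole embryo alone. For Gata2 and Plac1 only the start with matches is shown, and the other start held no match. Capitals mark every match, which reads as the reverse complement where it lies on the other strand.
Elf5, upstream start, chr2:103411848-103412097 (+ strand): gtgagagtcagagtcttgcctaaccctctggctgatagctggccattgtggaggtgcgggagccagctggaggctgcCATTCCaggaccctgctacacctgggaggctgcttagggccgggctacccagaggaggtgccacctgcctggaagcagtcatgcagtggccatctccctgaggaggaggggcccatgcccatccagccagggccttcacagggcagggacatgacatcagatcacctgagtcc
Elf5, downstream start, chr2:103423818-103424067 (+ strand): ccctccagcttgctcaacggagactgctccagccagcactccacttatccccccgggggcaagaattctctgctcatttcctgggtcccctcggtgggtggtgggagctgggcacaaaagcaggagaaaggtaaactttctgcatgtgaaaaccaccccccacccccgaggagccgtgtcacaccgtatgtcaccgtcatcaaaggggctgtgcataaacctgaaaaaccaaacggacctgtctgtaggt
Cdx2, chr5:147307250-147307499 (- strand): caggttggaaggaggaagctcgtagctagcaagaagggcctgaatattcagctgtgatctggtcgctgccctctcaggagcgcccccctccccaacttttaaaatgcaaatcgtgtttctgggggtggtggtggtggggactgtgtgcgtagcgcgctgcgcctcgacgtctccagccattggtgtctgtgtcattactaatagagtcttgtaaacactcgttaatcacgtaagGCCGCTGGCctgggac
Gata2, downstream start, chr6:88198414-88198663 (+ strand): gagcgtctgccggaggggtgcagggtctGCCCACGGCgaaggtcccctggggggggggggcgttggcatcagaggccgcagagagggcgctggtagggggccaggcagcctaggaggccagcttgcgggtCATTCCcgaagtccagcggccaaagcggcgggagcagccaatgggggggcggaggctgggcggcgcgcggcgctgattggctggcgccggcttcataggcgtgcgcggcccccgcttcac
Plac1, outer start, chrX:53240111-53240360 (- strand): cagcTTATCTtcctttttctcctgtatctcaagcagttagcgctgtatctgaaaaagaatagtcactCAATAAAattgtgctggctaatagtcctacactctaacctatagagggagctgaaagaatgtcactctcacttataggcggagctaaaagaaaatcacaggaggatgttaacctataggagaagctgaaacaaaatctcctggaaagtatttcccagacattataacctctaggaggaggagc
AP-2 letters lay in 3 of the 9 windows (Cdx2, Gata3 and 1 start of Gata2), against 13.7% of all 32851 windows in the table. TEAD letters lay in 2 (1 start each of Elf5 and Gata2), against 12.6%. GATA and CDX letters each lay in 1, both in the outer Plac1 start, against 16.6% and 9.81%, and ETS letters in 0, against 13.6%. These matches describe the letters only. The 2 Elf5 windows differed from each other, as the upstream start held TEAD letters and the downstream start held none of the 5 classes. The arrays do not tell the starts apart.

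Signals are the deposited values in arbitrary units on a linear scale, and their number, not a count behind each value, limits the precision. They are compared only between arrays within a probe set. Array medians were 591 to 645 on MOE430A and 56.7 to 61.0 on MOE430B. The paired fragments had a Spearman rho across kept probe sets, which are not independent, of 0.987 (Ad) and 0.972 (Pp) on MOE430A. As a check of the labels, the summed signal of the anterior visceral endoderm genes Cer1, Lefty1, Hhex, Lhx1 and Hesx1 was 12374 to 14739 in Ad, 3950 to 3989 in Pp and 5532 in the whole embryo. No marker of any list used here read 0 on MOE430A, where the lowest value was 27.5. Probe sets were kept for testing when their mean log2 signal passed the 40th percentile, near 464 units on MOE430A and 37.2 on MOE430B. That kept 10 of the 14 probe sets on MOE430A, for 7 genes, and 1 of the 2 on MOE430B. Elf5 1419555_at and Tfap2c 1436392_s_at read below 464 units in both Ad arrays, so they were kept through their Pp and whole-embryo signals. Whether their Ad signals were above background is not known. Log2 differences were taken after adding a pseudocount (247 and 10.5 units) and centring each array, and adjusted p comes from limma over all kept probe sets of the array type. Fold changes with an adjusted p are on this scale and understate the change of dim probe sets.

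**Figure D1:**
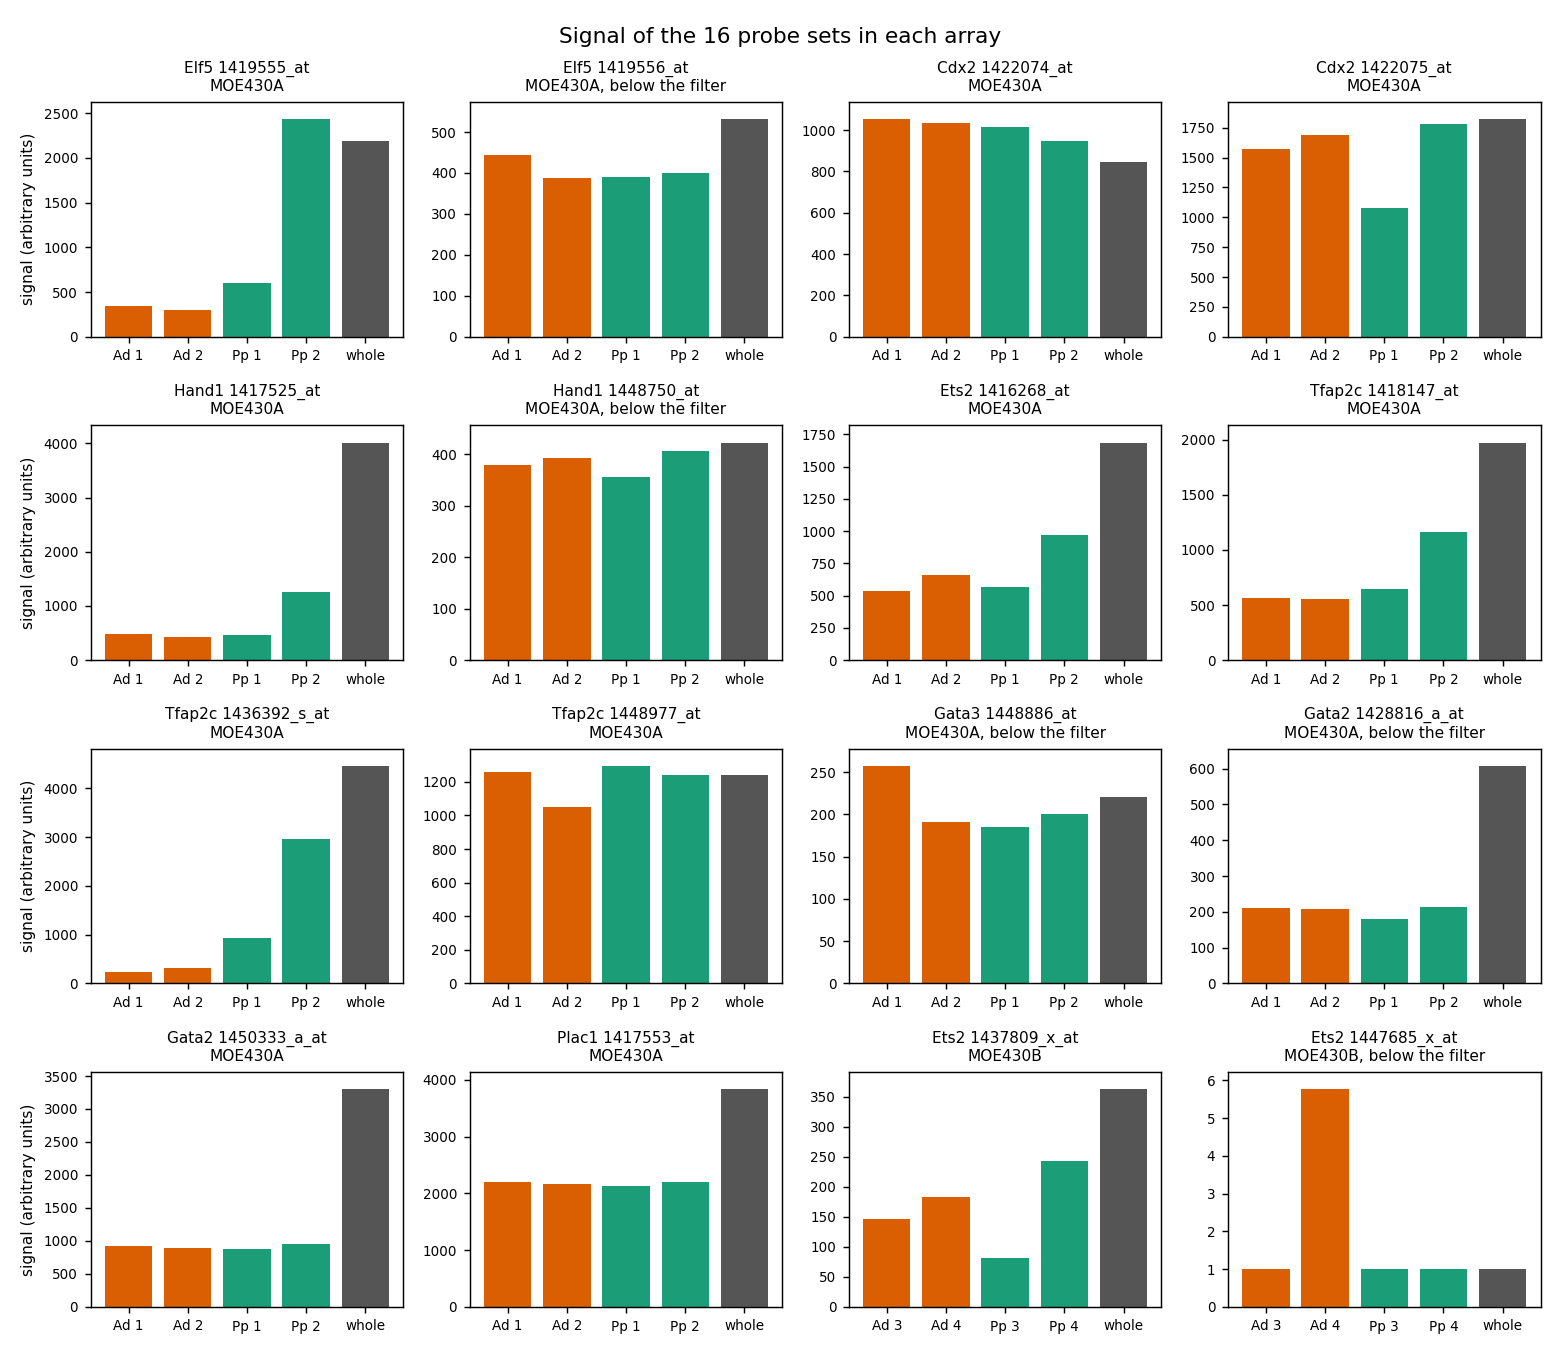
Deposited signal (vertical axes, arbitrary units, each starting at 0) of all 16 probe sets in each array, with 1 bar for an array: Ad in orange, Pp in green and the whole embryo in grey. Elf5 1419555_at stands at 2432 in Pp replicate 2, close to the whole embryo at 2194, while Gata2 and Plac1 stand out in the whole embryo alone.

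Elf5, a factor that marks trophoblast progenitors, was low in Ad, intermediate in Pp replicate 1 and as high in Pp replicate 2 as in the whole embryo. Probe set 1419555_at read 340.2 and 295.5 units in Ad, 601 (replicate 1) and 2432 (replicate 2) in Pp, and 2194 in the whole embryo. Both Ad arrays lay below both Pp arrays, and the Pp arrays were 4.05-fold apart. Both Ad signals were under the filter level, so the probe set was kept through Pp and the whole embryo. In bulk samples such as these, fewer cells of a type and less RNA per cell cannot be told apart. The log2 difference was -1.48 ± 0.49 (SE) for Ad minus Pp (adjusted p = 0.369), -2.07 ± 0.61 for Ad minus the whole embryo (adjusted p = 0.0992) and -0.58 ± 0.61 for Pp minus the whole embryo (adjusted p = 0.579). By deposited signal Pp replicate 2 exceeded the whole embryo, which exceeded the other 3 fragments. The second Elf5 probe set, 1419556_at, did not follow: it read 444 and 387 in Ad, 389 and 399.6 in Pp and 531 in the whole embryo, and lay below the filter.

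Tfap2c, the AP-2 gamma factor, gave 3 probe sets that did not behave alike. Probe set 1436392_s_at read 226 and 309 in Ad, 935 (replicate 1) and 2955 (replicate 2) in Pp, and 4455 in the whole embryo. Both Ad arrays lay below both Pp arrays, and the whole embryo lay above all 4. Both Ad signals were under the filter level, so this probe set was kept through Pp and the whole embryo. Probe set 1418147_at had the same order over a smaller span, with 564 and 556 in Ad, 648 and 1165 in Pp and 1975 in the whole embryo. Probe set 1448977_at, the brightest by mean log2 signal, was flat, at 1256 and 1052 in Ad, 1295 and 1241 in Pp and 1239 in the whole embryo. For Ad minus Pp the log2 differences of 1436392_s_at, 1418147_at and 1448977_at were -1.99 ± 0.44, -0.55 ± 0.21 and -0.18 ± 0.09 (SE; adjusted p = 0.239, 0.404 and 0.463). Against the whole embryo Ad was lower by 1436392_s_at (log2 difference -3.15 ± 0.53, adjusted p = 0.0254) and by 1418147_at (2.67-fold, adjusted p = 0.0289), but the log2 difference was -0.04 by 1448977_at (adjusted p = 0.840). The ending "s_at" is the maker's mark for probes that can match more than 1 transcript, and the probe sequences were not used here, so the part of the gene that each set reads cannot be given.

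Hand1, which promotes giant cell formation, was highest in the whole embryo. Probe set 1417525_at read 477 and 435 in Ad, 471 (replicate 1) and 1248 (replicate 2) in Pp, and 4014 in the whole embryo. Pp replicate 1 lay inside the Ad range, and Pp replicate 2 was 2.65-fold above its partner yet reached only 0.311 of the whole-embryo signal. Ad was lower than the whole embryo (log2 difference -2.55 ± 0.39, SE; adjusted p = 0.0193), and so was Pp (-1.93 ± 0.39, adjusted p = 0.0478). The Pp call ended under quantile normalization (adjusted p = 0.0553), a pseudocount of 1 (0.0624) and no filter (0.0766). For Ad minus Pp the log2 difference was -0.63 ± 0.32 (adjusted p = 0.494). The other Hand1 probe set, 1448750_at, was below the filter and spanned 356 to 423 units over the 5 arrays.

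Ets2, a factor for trophoblast progenitors, followed a similar course with smaller steps. On MOE430A probe set 1416268_at read 535 and 659 in Ad, 568 and 972 in Pp and 1687 in the whole embryo, with Pp replicate 1 again between the Ad arrays. Ad was 2.23-fold lower than the whole embryo (adjusted p = 0.0428), a call that ended under quantile normalization (0.0510) and with no filter (0.0716), and Pp had a log2 difference of -0.84 ± 0.24 (SE; adjusted p = 0.102). On MOE430B probe set 1437809_x_at read 147 and 183 in Ad, 81.6 (replicate 3) and 243 (replicate 4) in Pp, and 363 in the whole embryo. The ending "x_at" marks probes that may also bind other transcripts. There the Ad arrays lay between the Pp arrays, which were 2.98-fold apart, and the whole embryo was again above every fragment. Its log2 differences were 0.11 ± 0.42 for Ad minus Pp, -1.14 ± 0.51 for Ad minus the whole embryo and -1.26 ± 0.51 for Pp minus the whole embryo (adjusted p = 0.945, 0.350 and 0.306). The other Ets2 probe set on MOE430B, 1447685_x_at, read 1 and 5.76 in Ad, 1 in both Pp arrays and 1 in the whole embryo, below the filter.

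Gata2 and Plac1 separated the whole embryo from all 4 fragments and barely separated the fragments. Gata2 probe set 1450333_a_at read 925 and 900.0 in Ad, 871 and 951 in Pp, and 3298 in the whole embryo. The 4 fragments lay close together, and the whole embryo stood far above them. Ad was 2.96-fold lower than the whole embryo (adjusted p = 0.000916) and Pp 2.83-fold lower (adjusted p = 0.0010). The fainter Gata2 probe set, 1428816_a_at, was below the filter and read 211 and 208 in Ad, 179.9 and 213 in Pp, and 607 in the whole embryo. With no filter it too was lower in Ad (log2 difference -0.86, adjusted p = 0.00697) and in Pp (-0.86, adjusted p = 0.00715). Plac1 probe set 1417553_at read 2207 and 2157 in Ad, 2119.8 and 2206 in Pp, and 3830.45 in the whole embryo, so the fragments differed little here too. It was 1.63-fold lower in Ad (adjusted p = 0.00849) and 1.56-fold lower in Pp (adjusted p = 0.0128) than in the whole embryo. For Ad minus Pp the log2 differences of Gata2 1450333_a_at and Plac1 1417553_at were -0.07 ± 0.07 and -0.06 ± 0.07 (SE; adjusted p = 0.743 and 0.759). Without centring both differences turned positive, to 0.0024 and 0.012.

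Cdx2 and Gata3 showed no such course. Cdx2, the homeobox factor of the trophectoderm, read 1574 and 1689 in Ad, 1074 (replicate 1) and 1784 (replicate 2) in Pp, and 1821 in the whole embryo by probe set 1422075_at. Only Pp replicate 1 stood apart, below the rest. Probe set 1422074_at ran the other way, at 1052 and 1034 in Ad, 1012 and 949 in Pp and 847 in the whole embryo, and was the single tested probe set of the 10 with its lowest value in the whole embryo (1 of 10, as for 38.5% of all kept probe sets on the centred log2 scale). Their log2 differences were -0.09 ± 0.24 and 0.28 ± 0.08 for Ad minus the whole embryo, in the order 1422075_at and 1422074_at (SE; adjusted p = 0.852 and 0.0937), and 0.13 ± 0.20 and 0.0038 ± 0.066 for Ad minus Pp (adjusted p = 0.818 and 0.986). Gata3, a trophectoderm factor, was dim in its single probe set, 1448886_at, at 257 and 191 in Ad, 185 and 200.1 in Pp and 221 in the whole embryo. These values lay below the filter in every array and their groups overlapped. The deposited values carry no detection call, so whether Gata3 was above background is not known.

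Counted over the 8 genes, 0 of 10 tested probe sets passed between Ad and Pp on MOE430A in limma, while 3 (Elf5 1419555_at and Tfap2c 1418147_at and 1436392_s_at) had an unadjusted p under 0.05. In that comparison 0.169% of all 13575 probe sets passed, and 11.7% had an unadjusted p under 0.05. The median of the 10 log2 differences was -0.25, against -0.03 over all probe sets, and 8 were negative. In 3 of the 10, the same Elf5 and Tfap2c probe sets, both Ad arrays lay below both Pp arrays by deposited signal, as in 12.2% of all probe sets. On the centred log2 scale that number was 7, as in 29.1% of all, since Hand1, Gata2, Plac1 and Tfap2c 1448977_at overlapped before centring. In 6 of the 10 the whole embryo lay above all 4 fragments on the centred scale, as in 22.7%. Against the whole embryo, 6 of 10 probe sets, for Hand1, Ets2, Tfap2c (2 sets), Gata2 and Plac1, were lower in Ad, where 4.66% of all probe sets were lower and 3.9% higher. In Pp 3 of 10, for Hand1, Gata2 and Plac1, were lower, where 4.01% of all were lower and 2.25% higher. The median log2 differences were -1.28 for Ad and -0.74 for Pp, against 0.03 and 0.06 over all probe sets. Elf5 1419555_at and Tfap2c 1436392_s_at were kept through Pp and the whole embryo. In the comparisons with Ad, the filter thus favoured a low Ad value for them. The comparisons with the whole embryo share its single array, which was assumed to vary like the fragments. On MOE430B the 1 tested Ets2 probe set passed in none of the 3 comparisons in limma, in which 0.111%, 2.23% and 1.76% of all probe sets passed, and had an unadjusted p under 0.05 in 1 (Pp minus the whole embryo, where 15.9% of all did).

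Leaving out an Ad array ended most of these calls, and leaving out a Pp array, which leaves the Ad pair as the source of the spread, added some. Without Ad replicate 1, and likewise without Ad replicate 2, Gata2 1450333_a_at was the 1 of 10 probe sets lower in Ad than in the whole embryo, and the same 1 was lower in Pp. All probe sets then gave 207 and 188 calls for Ad minus the whole embryo, against 1163 with all arrays. Without Pp replicate 1, and likewise without Pp replicate 2, 8 of 10 passed between Ad and the whole embryo, with Elf5 1419555_at lower (log2 difference -2.06 and -2.07) and Cdx2 1422074_at higher (0.29 and 0.28) beside the 6 named above, and all probe sets gave 3295 and 3307 calls. On MOE430B, leaving out Pp replicate 3 or Pp replicate 4 brought Ets2 1437809_x_at past the threshold for Ad minus the whole embryo. It did not pass with all arrays, and the share of all MOE430B probe sets passing in these fits is not given here.

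**Figure D2:**
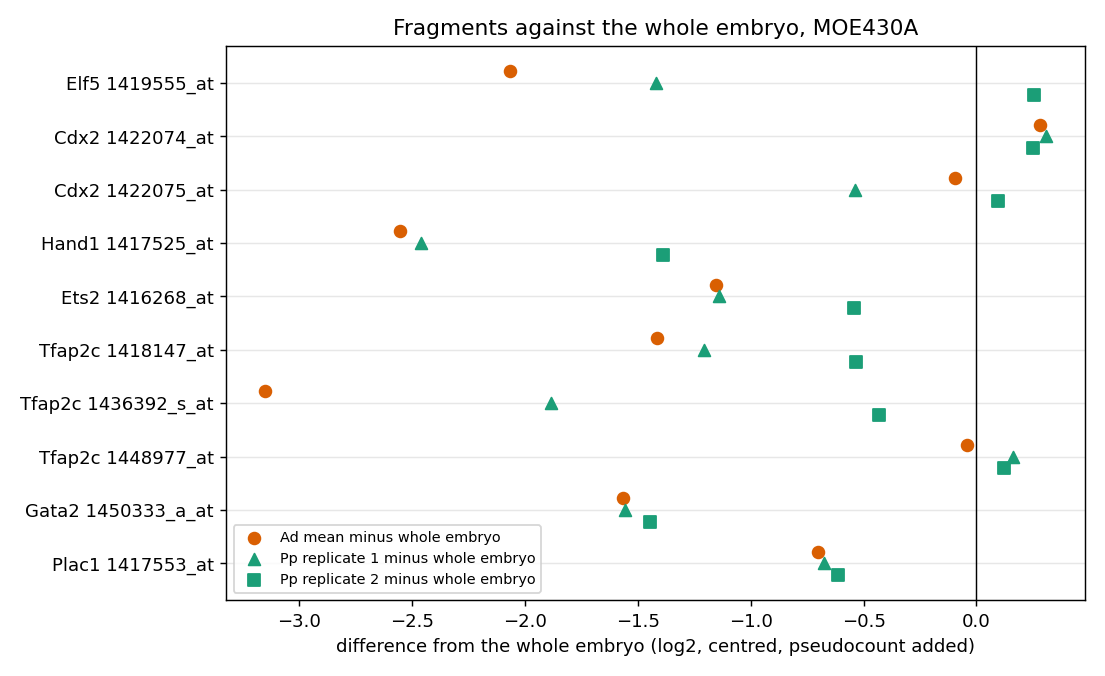
Difference from the whole embryo on the centred log2 scale (horizontal axis) for the 10 tested MOE430A probe sets: circles are the Ad mean (n = 2), triangles Pp replicate 1 and squares Pp replicate 2. For Elf5, Hand1, Ets2, Cdx2 1422075_at and 2 Tfap2c probe sets the squares lie to the right of the circles and triangles. For Gata2 and Plac1 the 3 marks lie together near -1.5 and -0.65.

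Each Pp array taken alone gave a different account of these genes. On the centred log2 scale Pp replicate 2 minus Pp replicate 1 was 1.67 for Elf5 1419555_at, 1.45 for Tfap2c 1436392_s_at, 1.07 for Hand1 1417525_at, 0.67 for Tfap2c 1418147_at, 0.63 for Cdx2 1422075_at and 0.59 for Ets2 1416268_at. It was 0.11 for Gata2, 0.07 for Plac1, -0.04 for Tfap2c 1448977_at and -0.06 for Cdx2 1422074_at. Over all kept probe sets 95% of the differences between the Pp arrays were within 0.368 either way, so the first 6 lay outside that range and the last 4 inside it. Between the Ad arrays the largest difference among the 10 was 0.252. Pp replicate 2 exceeded every other fragment by at least 2-fold for 3 of the 10, Elf5, Hand1 and Tfap2c 1436392_s_at, as for 0.169% of all probe sets (23 of 13575). These contrasts between single arrays have no replicate check.

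The fit without the other Pp array gives the only test of Ad against 1 Pp array, and it takes its spread from the Ad pair alone, so its p-values do not cover the spread between the Pp arrays. Against Pp replicate 2, 5 of 10 probe sets were lower in Ad (2.53% of all probe sets), for Elf5, Hand1, Ets2 and Tfap2c 1418147_at and 1436392_s_at, with log2 differences of -2.32, -1.16, -0.61, -0.88 and -2.72. Adjusted p was 0.00281 for Ets2 and below that for the other 4. Against Pp replicate 1, 2 of 10 were lower in Ad (0.832% of all), Elf5 (-0.65, adjusted p = 0.00118) and Tfap2c 1436392_s_at (-1.27, adjusted p = 2.16e-05), and Cdx2 1422075_at was higher (0.45, adjusted p = 0.0155; 2.89% of all were higher). Hand1 and Ets2 had log2 differences of -0.09 and -0.02 there (adjusted p = 0.641 and 0.957). Elf5 and Tfap2c 1436392_s_at were thus lower in Ad than in either Pp array, in 2 comparisons that share the Ad arrays. Both probe sets were kept through Pp and the whole embryo, so the filter favoured a low Ad value. With both Pp arrays in the fit, where the distance between them enters the spread, neither passed.

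Set against the whole embryo one at a time, each Pp array is a single array against a single array, so the differences are given without a test. For Elf5 1419555_at the centred log2 difference from the whole embryo was -1.42 for Pp replicate 1 and 0.26 for Pp replicate 2, on opposite sides of 0. For Cdx2 1422075_at it was -0.54 and 0.09. Hand1 lay below the whole embryo in both arrays, at -2.46 and -1.39. Gata2 1450333_a_at did so at -1.56 and -1.44 and Plac1 at -0.68 and -0.61, with the Pp arrays close to each other. On MOE430B, Ets2 1437809_x_at differed from the whole embryo by -1.96 in Pp replicate 3 and by -0.55 in Pp replicate 4.

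Other genes of the extraembryonic ectoderm and trophoblast progenitors also mostly read higher in Pp replicate 2. Of 24 listed genes 21 were tested on MOE430A, and 18 of these were higher in Pp replicate 2 than in Pp replicate 1. The median difference was 0.25 on the log2 scale, against 0.01 over all probe sets. The shift was not particular to this list, as 12 of 14 visceral endoderm genes were also higher, with a median of 0.26. Bmp4, the ligand sent by this tissue to the epiblast, read 744 and 605 in Ad, 573 (replicate 1) and 2359 (replicate 2) in Pp, and 1595 in the whole embryo. Plet1, a surface protein of trophoblast progenitors, read 386 and 367 in Ad, 368 and 1421 in Pp and 2179 in the whole embryo. The connexin gene Gjb5 read 491 and 466 in Ad, 454 and 1593 in Pp and 2639 in the whole embryo. In these 3 genes Pp replicate 1 was no higher than the upper Ad array, while Pp replicate 2 was above both. Id2, an inhibitor of basic helix-loop-helix factors, was higher in both Pp arrays than in Ad, with 264 and 225 in Ad, 1020.0 and 2781 in Pp and 2159 in the whole embryo (Ad minus Pp -2.06 on the log2 scale, adjusted p = 0.178). These 4 genes supplied 4 of the 23 probe sets at least 2-fold higher in Pp replicate 2 than in every other fragment. Between Ad and Pp 0 of the 21 passed in limma, 17 being negative with a median of -0.17. Among the 4 positive ones, the keratin genes Krt8, Krt18 and Krt7 had both Ad arrays above both Pp arrays (log2 difference 0.54, 0.39 and 0.33). Krt8 read 7122 and 6791 in Ad and 3793 and 5272 in Pp. The summed signal of the 23 annotated genes was 45393 and 42810 in Ad, 37090 (replicate 1) and 53953 (replicate 2) in Pp, and 59145 in the whole embryo. Against the whole embryo 2 of the 21, Id2 and Krt7, were lower in Ad by limma (log2 difference -2.25 and -0.52, adjusted p = 0.0415 and 0.0441). In Pp 1 of the 21, Krt7, was lower (-0.84, adjusted p = 0.0136). Of all probe sets 4.66% were lower in Ad and 4.01% in Pp. The T-box gene Eomes was nearly level, at 3549 and 3537 in Ad, 3379 and 4001 in Pp and 4080 in the whole embryo. On MOE430B 3 of the list were tested and 0 passed, and Plet1 read 127 and 121 in Ad, 115 (replicate 3) and 289.8 (replicate 4) in Pp, and 343 in the whole embryo.

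The ectoplacental cone and later trophoblast were represented by fewer tested genes. Of 24 listed genes 16 were annotated and 5 tested on MOE430A. Of these, 2 were lower in both fragments than in the whole embryo, where 4.66% of all probe sets were lower in Ad and 4.01% in Pp. Phlda2, an imprinted growth regulator of the placenta, read 1342 and 1371 in Ad, 1760.2 and 2919 in Pp and 6298 in the whole embryo (log2 difference -1.98 for Ad and -1.26 for Pp, adjusted p = 0.0110 and 0.0457). Cdkn1c, an imprinted inhibitor of the cell cycle, read 791 and 673 in Ad, 777 and 1035 in Pp and 2679.6 in the whole embryo (-1.54 and -1.24, adjusted p = 0.00506 and 0.0122). For Ad and Pp against the whole embryo, Ascl2 had log2 differences of -0.24 and -0.14. Flt1 (0.04 and 0.07) and Nrk (0.18 and 0.19) had positive ones. Between Ad and Pp 0 of 5 passed in limma. On MOE430B Ldoc1 was lower in Ad than in the whole embryo (log2 difference -1.40, adjusted p = 0.0253) among 3 tested, where 1.61% of all probe sets were lower.

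**Figure D3:**
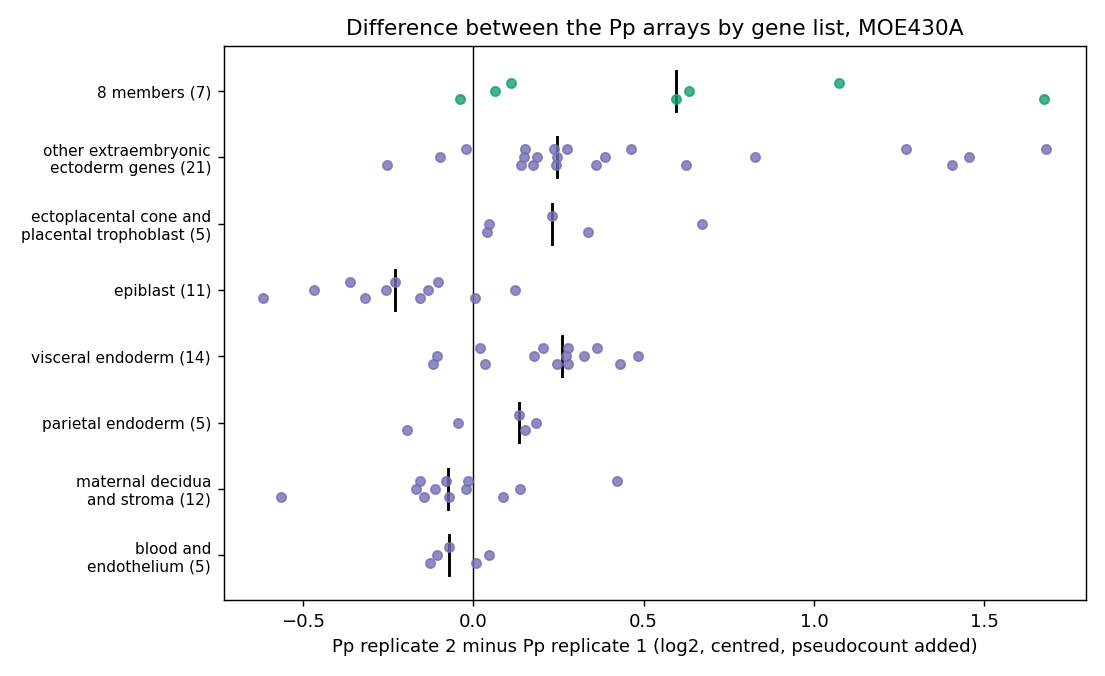
Pp replicate 2 minus Pp replicate 1 on the centred log2 scale (horizontal axis) for tested genes of each list on MOE430A, 1 point for a gene by its brightest probe set, with the list median as a black bar and the number of genes in brackets. The members (median 0.59), the other extraembryonic ectoderm genes (0.25) and the visceral endoderm genes (0.26) lie mostly to the right of 0 and the epiblast genes (-0.23) mostly to the left.

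Markers of other tissues differed as well. Of 11 tested epiblast genes 9 were lower in Pp replicate 2 than in Pp replicate 1, with a median of -0.23, and of 14 visceral endoderm genes 12 were higher, with a median of 0.26. The summed signal of the 12 annotated epiblast genes was 48338 and 50264 in Ad, 49989 (replicate 1) and 43092 (replicate 2) in Pp, and 33407 in the whole embryo. That of the 14 visceral endoderm genes was 100061 and 87528 in Ad, 74867 and 91299.9 in Pp and 72915 in the whole embryo. That of 14 maternal decidua and stroma genes was 9214 and 9775 in Ad, 9454 and 8883 in Pp and 30918 in the whole embryo. The whole-embryo sum thus lay outside the fragments in these lists, though narrowly for visceral endoderm (72915 against 74867 in Pp replicate 1). In limma 8 of 12 tested decidua and stroma genes passed as lower in Ad and 8 of 12 in Pp. Of all probe sets 4.66% were lower in Ad and 4.01% in Pp. By direction 9 and 10 of the 12 were lower (median log2 difference -1.23 and -1.18, against 0.03 and 0.06 over all probe sets). Prl8a2, a prolactin-family hormone of the decidua, read 254 and 564 in Ad, 241 and 267 in Pp and 6063 in the whole embryo. On MOE430A Des, Esr1 and Pgr went the other way in Ad (log2 difference from the whole embryo 0.11, 0.09 and 0.20). Des and Esr1 also did so in Pp (0.12 and 0.20). On MOE430B other probe sets of Esr1 and Pgr were lower in Ad (-5.34 and -3.53). For 10 blood and endothelium genes the sum was 4688 to 4804 in Ad, 4528 to 4792 in Pp and 6026 in the whole embryo. By direction 4 of 5 tested were lower in Ad than in the whole embryo. In limma 1 of the 5, the endothelial receptor gene Kdr, passed (log2 difference -0.43, adjusted p = 0.0452), where 4.66% of all probe sets were lower. For 7 parietal endoderm genes the sum was 14737 to 15060.3 in Ad, 10379 to 10880.2 in Pp and 20642 in the whole embryo. On MOE430B the summed signal of 8 decidua and stroma genes was 329 to 442 in Ad, 360.5 to 427 in Pp and 5387 in the whole embryo. The part of these tissues in the values of the 8 genes was not tested.

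**Figure D4:**
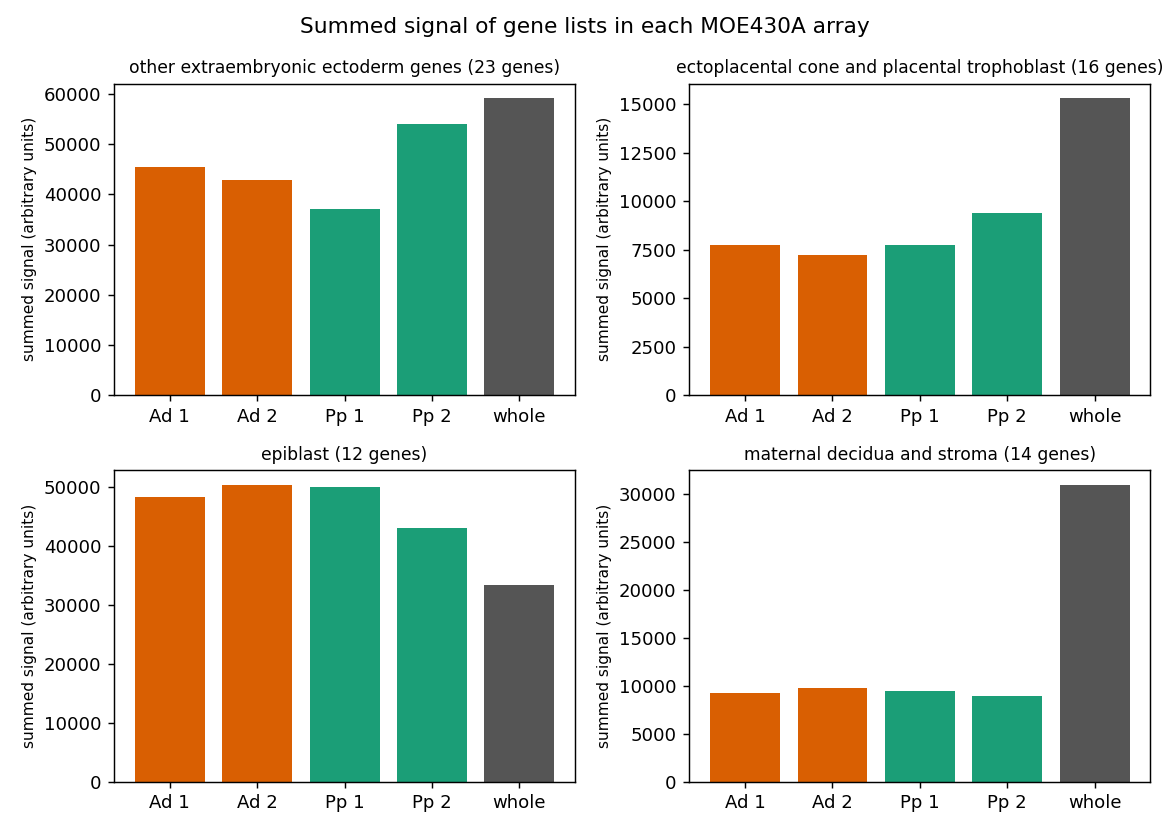
Summed deposited signal (vertical axes, arbitrary units, starting at 0) of 4 gene lists in each MOE430A array, with Ad in orange, Pp in green and the whole embryo in grey. The decidua and stroma sum is 30918 in the whole embryo and at most 9775 in a fragment, and the epiblast sum is lowest in the whole embryo at 33407.

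The profiles most like Elf5 and Hand1 were sought over the 5 MOE430A arrays by the root mean square distance between centred log2 profiles, each minus its own mean, among 12424 probe sets with 1 gene symbol. Nearest to Elf5 were Htra1, a secreted serine protease (distance 0.184), Id2 (0.292), Gsto1, a glutathione transferase (0.318), Plet1 (0.339) and Ndrg1 (0.342), against a median distance of 1.003. Htra1 read 443 and 421 in Ad, 547 and 2766 in Pp and 3131 in the whole embryo. Nearest to Hand1 were the galectin gene Lgals1 (0.112), the annexin gene Anxa5 (0.166), the actin-binding caldesmon gene Cald1 (0.241), Phlda2 (0.283) and Gjb5 (0.284), against a median of 1.01. Lgals1 read 1639 and 1894 in Ad, 1792 and 3564 in Pp and 10845 in the whole embryo. Among the 7 tested genes by their brightest probe sets, Ets2 and Plac1 were the closest pair, at 0.25, and Hand1 lay 0.49 from Gata2 and 0.56 from Elf5. The Tfap2c probe sets 1436392_s_at and 1448977_at lay 1.29 apart, further than any pair of the 7 genes by their brightest probe sets.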

How the data were processed

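RNA from Ad, Pp and the whole embryo, linearly amplified per the labels' protocols, had been hybridised to Affymetrix MOE430A and MOE430B arrays. The deposited values are a linear signal intensity for each probe set. The submitters' processing notes name MAS5 as the authors' tool with version, scaling target and floor not given in the sources used here. Both array types were analysed apart and never combined, and R 4.3.3 and limma 3.58.1 were used. Of each type 64 control probe sets were left out, the 20th percentile of all values was added before the log2, probe sets with a mean log2 above the 40th percentile were kept (13575 and 13506), and arrays were centred on their medians. lmFit and eBayes were applied with Ad, Pp and whole embryo as groups (2 residual degrees of freedom). Tests were two-sided, at a Benjamini-Hochberg adjusted p of 0.05, and the fit was tested on simulated data. Names come from the platform annotation, and RefSeq (GRCm38.p6) matched the gene identifiers of 20351 and 14486 probe sets, with the same symbol for each. All probe sets of the 8 genes are reported. From the gene lists the text takes genes past the threshold or with the largest differences. Eomes, Krt8, Krt18, Ascl2, Flt1 and Nrk were added after their values were seen. The members and lists were chosen with earlier results of these data known. Alternatives covered centring, normalization, pseudocount, filter, variance trend, replicate block, choice of probe set and leaving out each fragment array. Promoter windows were searched in Python 3.11.15.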

Additional observations from a re-analysis of the deposited data

How the results depend on the processing

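The counts of the 8 genes' probe sets past the threshold changed most with the arrays kept. Without 1 array, the count of 10 on MOE430A was 0 to 5 for Ad minus Pp, 1 to 8 for Ad minus the whole embryo and 1 to 9 for Pp minus the whole embryo, against 0, 6 and 3 with all arrays. On MOE430B the 1 tested Ets2 probe set passed in no comparison with all arrays. Its log2 difference for Pp minus the whole embryo, -1.26 with all arrays, was -0.55 without Pp replicate 3 and -1.96 without Pp replicate 4. The calls over all MOE430A probe sets then ran between 1 and 811, 188 and 3307, and 243 and 2866, against 23, 1163 and 850. Under the alternatives that kept all arrays, Ad minus Pp stayed at 0 of 10, Ad minus the whole embryo gave 4 (of 7, brightest probe sets) to 7, and Pp minus the whole embryo 2 (of 10, quantile normalization and a pseudocount of 1) to 4. Over all probe sets these alternatives gave 19 to 47, 777 to 1700 and 503 to 1314 calls on MOE430A, and on MOE430B 2 to 30, 143 to 409 and 157 to 311, against 15, 301 and 238. Pp replicate 2 exceeded every other fragment at least 2-fold for 2 of 10 with a pseudocount at the 40th percentile, and for 3 of 10 under the other scalings, pseudocounts and filters. Of 294 single log2 differences under those alternatives 283 kept their direction and their side of the threshold, and without 1 array 87 of 132 did.

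The following directions reversed. For Ad minus Pp these were Gata2 1450333_a_at (0.0024) and Plac1 1417553_at (0.012) without centring, and Cdx2 1422074_at with the filter at the 60th percentile (-0.00028). Leaving out 1 array gave -0.027 to 0.034 for Cdx2 1422074_at, -0.19 to 0.45 for Cdx2 1422075_at and -0.59 to 0.82 for Ets2 1437809_x_at in Ad minus Pp. It gave -0.14 to 0.055 for Tfap2c 1448977_at in Ad minus the whole embryo. In Pp minus the whole embryo it gave -1.42 to 0.26 for Elf5 1419555_at and -0.54 to 0.096 for Cdx2 1422075_at, both positive without Pp replicate 1 alone, since Pp replicate 2 then stands for Pp. The counts without a Pp array take their spread from the Ad pair alone.

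The replicate numbers are not said to pair Ad with Pp. Deviations of equal numbers correlated at -0.24 on MOE430A and -0.04 on MOE430B across probe sets. With the replicate block, Ad minus Pp stayed at 0 of 10 member probe sets, Ad minus the whole embryo went to 7 (Elf5 1419555_at, adjusted p = 0.0495) and Pp minus the whole embryo to 4 (Ets2 1416268_at, 0.0274). With the Pp numbers crossed, a setting chosen after seeing the data, the counts were 0, 7 and 3. With 5 arrays of a type and 1 whole embryo, p-values rest on 2 pairs. Probe sets below the filter entered only the fit with no filter, and where their arrays lie close together the order is not settled.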
